A study of Mus musculus with 16 samples.

Results

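Multipotent progenitors (MPP) and common myeloid progenitors (CMP) were compared for their microRNAs (miRs) on 6 of the 16 one-colour Agilent mouse miR arrays of the study, 3 arrays for each population, chosen by their titles. Both populations came from the bone marrow of untreated female C57Bl/6 mice aged 6 to 8 weeks, with 10 to 20 mice pooled for each replicate, and were sorted after lineage depletion and c-kit enrichment. MPP were sorted as LIN- c-kit+ Sca1+ CD34+ FLT3+ cells and CMP as LIN- c-kit+ Sca1- cells with intermediate CD34 and FcRg. The comparison addresses the miRs that differ at entry into the myeloid lineage.

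The other arrays held LT-HSC and ST-HSC (long-term and short-term hematopoietic stem cells), GMP (granulocyte-monocyte progenitors) and MEP (megakaryocyte-erythroid progenitors), and they enter here only where they bear on MPP and CMP. The surface proteins that defined the gates are not measured by a miR array, so the labels were checked only against miRs. MPP and CMP were also taken in separate sorts, so sort, slide and population cannot be told apart in the direct comparison.

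A miR is an RNA of about the length of the sequences printed here, cut from a hairpin precursor, that directs the silencing complex to messenger RNAs. Pairing is set mainly by the seed, bases 2 to 8 of the mature strand, and miRs with the same seed share many targets. MPP have lost long-term self-renewal but still give rise to lymphoid and myeloid cells, while CMP give rise to granulocytes, monocytes, megakaryocytes and erythroid cells. In the hematopoietic system the miR-99, miR-125 and let-7 clusters and the miRs of the Hox loci are known from stem and progenitor cells, miR-150 from lymphocytes, miR-223 from granulocytes, and miR-144 and miR-451 from erythroid cells.

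No slide held both populations. All 3 MPP arrays were on slide 3, CMP 1 and CMP 2 on slide 1, and CMP 3 on slide 2. Each difference was therefore read in 3 ways. The first was the plain difference between the 3 MPP and 3 CMP arrays. The second set the gap between the nearest MPP and CMP arrays beside the CMP difference between slides, which is CMP 3 minus the mean of CMP 1 and CMP 2. The third was a fit with slide as a block, which joins MPP to CMP only through ST-HSC, with 2 arrays on slide 3 and 1 on slide 2. The block therefore rests on the ST-HSC 1 array, and for a given miR the ST-HSC difference between slides 3 and 2 is given beside the result.

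The sequences below belong to the miRs on which the results turn, with the seed in capitals. They are the mature miRs of RefSeq (GRCm38.p6), matched to the names on the array for 180 of the 237 miRs tested. The first set holds miRs that were higher in MPP in every reading, with miR-100, which shares a seed with miR-99a and miR-99b but was not called without the block.
miR-99a: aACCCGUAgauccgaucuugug
miR-99b: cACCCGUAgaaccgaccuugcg
miR-100: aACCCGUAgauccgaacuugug
miR-125a-5p: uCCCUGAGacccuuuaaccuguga
miR-125b-5p: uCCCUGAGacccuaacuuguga
let-7e: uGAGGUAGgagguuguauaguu
miR-10a: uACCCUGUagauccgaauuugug
miR-196b: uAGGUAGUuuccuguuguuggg
miR-126-3p: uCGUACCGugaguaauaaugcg
miR-224: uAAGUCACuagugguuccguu

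The second set holds miRs that were lower in MPP. MiR-106b* and miR-18a were so in every reading, while miR-17 and miR-106a, which share their seed, and miR-338-3p were lower without the block only.
miR-106b*: cCGCACUGuggguacuugcugc
miR-18a: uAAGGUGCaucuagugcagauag
miR-17: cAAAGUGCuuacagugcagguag
miR-106a: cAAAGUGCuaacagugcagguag
miR-338-3p: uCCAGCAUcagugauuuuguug

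The third set shows miRs whose reading depended on slide. MiR-16 and miR-195 share a seed and moved in opposite directions without the block, and miR-29c stands for a family that was called with the block only.
miR-16: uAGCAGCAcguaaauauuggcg
miR-195: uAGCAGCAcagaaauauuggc
miR-29c: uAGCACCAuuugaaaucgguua

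Mature miRs of 1 family can be close to identical. MiR-99a and miR-100 differ at 1 of 22 bases, miR-17 and miR-106a at 1 of 23, and miR-29a and miR-29c at 1 of 22. How far the probes of such miRs share signal was not tested.

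A miR was counted as detected on an array where the scanner software placed a share of at least 0.5 of its probe's spots well above background. Across the arrays, 237 miRs passed the detection filter and were tested, 228 of them detected on at least 1 of the 6 arrays, 135 on all 6 and 9 on none. More miRs were detected in MPP, with 206, 223 and 217 on the 3 arrays, than in CMP, with 168, 144 and 158. The mean was 215 ± 8.62 (SD, n = 3) in MPP and 157 ± 12.1 (SD, n = 3) in CMP, and an exact two-sided permutation test gave p = 0.1, the smallest value that 3 against 3 arrays allow. ST-HSC had 177 detected miRs on slide 2 and 212 and 200 on slide 3, so the count also differed between slides within 1 population. Negative control spots reached a 95th percentile of 30.6 and 44.3 signal units on the CMP arrays of slide 1, against 2.21 on CMP 3 and 1.99 to 3.35 on the MPP arrays. Summed signal before normalization was 240800, 279700 and 66240 units on CMP 1 to 3 and 143900 to 163700 on the MPP arrays. Across the tested miRs, arrays of the same population correlated at 0.988 to 0.994 within a slide and at 0.947 and 0.954 between slides, and MPP and CMP arrays at 0.879 to 0.915. In sorted bulk samples, a difference can lie in fewer cells of a type or in less RNA per cell, and these cannot be told apart.

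In the plain comparison 78 of the 237 miRs (32.9%) passed an adjusted p of 0.05, 41 higher in MPP (17.3%) and 37 lower (15.6%). With the log2 values deposited by the authors in place of the signals used here, the split was 60 higher to 32 lower. The 3 MPP and 3 CMP arrays did not overlap for 77 of the called miRs, and for 139 of all 237 (58.6%). The gap exceeded the CMP difference between slides for 58 (24.5%), 30 higher in MPP (12.7%) and 28 lower (11.8%). It exceeded the largest slide difference of CMP, GMP, MEP and ST-HSC for 27. Without normalization between arrays 20 miRs were called and 11 exceeded the CMP difference between slides. With slide as a block 49 miRs were called (20.7%), 37 higher in MPP (15.6%) and 12 lower (5.06%). Of the 78 miRs, 26 were called in the same direction with the block, 20 higher in MPP and 6 lower, 32 kept the sign but were not called, and 20 changed sign. All levels and differences below are on the log2 scale of quantile-normalized signal, where 1 unit is a doubling and signals at the floor of 1.62 have no order.

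**Figure D1:**
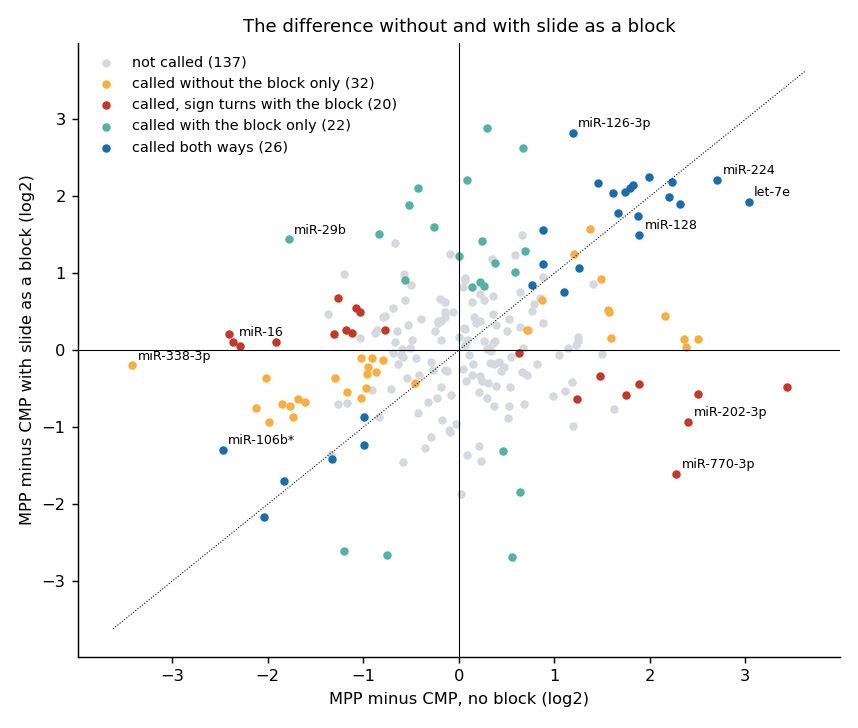
Difference between MPP and CMP (log2) for each of the 237 miRs without a block (x axis) and with slide as a block (y axis), coloured by how the miR was called, with the number of miRs in the key. Points on the dotted line have the same value in both fits. The 26 miRs called both ways lie in the upper right and lower left, and the 20 whose sign turned lie across the horizontal line.

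The miRs of the miR-99, miR-125 and let-7 clusters were the most uniform group in favour of MPP. Of 7 miRs on the list 6 were called higher in MPP, none lower, with a median difference of 1.67 against 0.10 over all miRs tested. With the block 6 were again called, 5 of them the same as before. Of all miRs tested 17.3% were called higher without the block and 15.6% with it.

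Let-7e, a member of the let-7 family, had the largest difference among the miRs called in every reading. It was at 7.51, 7.27 and 7.61 on the MPP arrays and at 4.31, 4.59 and 4.38 on the CMP arrays. Every MPP array lay above every CMP array, and CMP 3 lay between the CMP arrays of slide 1. The difference was 3.04 (SE 0.38, adjusted p = 9.22e-05), and with the block 1.93 (SE 0.43, adjusted p = 0.00893). ST-HSC were 1.39 higher on slide 3 than on slide 2, in the same direction. Let-7e was detected on only 1 of the 3 CMP arrays, so the size of the difference is not firm.

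MiR-99b and miR-125a-5p flank let-7e on chromosome 17, the 3 probe targets spanning chr17:17967164-17967804 (mm9). MiR-99b was at 4.38, 4.34 and 4.51 in MPP and at 2.32, 2.22 and 2.09 in CMP. MiR-125a-5p was at 5.49, 5.23 and 5.69 in MPP and at 3.64, 3.54 and 2.51 in CMP. Both were detected on all MPP arrays and on no CMP array, so only bounds can be given, at least 1.08-fold higher for miR-99b and at least 2.24-fold higher for miR-125a-5p. The fitted differences were 2.20 (SE 0.17, adjusted p = 6.66e-07) and 2.24 (SE 0.27, adjusted p = 7.73e-05), and they were 1.99 and 2.19 with the block. The other strand of the miR-125a hairpin, miR-125a-3p, did not move with them, at 5.41, 5.43 and 5.21 in MPP and 4.56, 4.96 and 5.88 in CMP (adjusted p = 0.76).

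MiR-99a and miR-125b-5p, with listed positions on chromosome 16, were strongly detected in both populations. MiR-99a was at 9.14, 9.06 and 9.28 in MPP and at 7.55, 7.5 and 7.59 in CMP, a 3.06-fold difference (adjusted p = 0.000354). MiR-125b-5p, which shares its seed with miR-125a-5p, was at 9.67, 9.44 and 9.52 in MPP and at 8.17, 7.80 and 7.65 in CMP, a 3.18-fold difference (adjusted p = 0.000677). For miR-99a the CMP difference between slides was 0.06. Levels of both fell further in GMP and MEP, with means of 6.40 and 3.72 for miR-99a and of 6.70 and 4.55 for miR-125b-5p.

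Let-7c was at 11.03, 10.89 and 10.93 in MPP and 9.75, 9.91 and 8.51 in CMP, but its gap of 0.98 lay within the CMP difference between slides of 1.33. MiR-100 was the member that was not called. It was at 5.17, 4.99 and 5.25 in MPP and at 5.62, 5.56 and 5.02 in CMP, where the arrays overlapped (difference -0.26, adjusted p = 0.64). With the block its difference was 1.60 (adjusted p = 0.0409), as the ST-HSC arrays on slide 3 were 1.39 lower than the one on slide 2.

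The let-7 family as a whole, 9 miRs with the seed GAGGUAG, had 3 members called higher in MPP (let-7a, let-7c and let-7e) and none lower, with a median of 1.25. Of all miRs tested 17.3% were higher. Let-7a was at 12.24, 12.24 and 12.39 in MPP and at 11.15, 11.15 and 9.86 in CMP. Its gap of 1.09 was below the CMP difference between slides of 1.29, and ST-HSC differed by 1.78 between slides in the same direction as MPP from CMP. Let-7b, let-7d, let-7f, let-7g, let-7i and miR-98 were not called. Within the family, let-7e was the member called with the block, where the median of the 9 was 0.38.

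Of the 4 miRs of the Hox loci, which lie between Hox genes and are expressed with them in many tissues, 2 were called higher in MPP without and with the block. Over all 237 miRs 41 were higher without the block (17.3%) and 20 in both fits. MiR-10a was at 9.79, 9.91 and 10.08 in MPP and at 7.95, 8.10 and 6.79 in CMP, a 4.97-fold difference (adjusted p = 0.00604). For miR-10a ST-HSC were 1.34 higher on slide 3 than on slide 2, in the same direction. MiR-196b was at 9.28, 9.14 and 9.24 in MPP and at 7.80, 7.65 and 6.72 in CMP, a 3.56-fold difference (adjusted p = 0.00127). For both the lowest MPP array was above the highest CMP array by more than the CMP arrays of different slides differed, 1.68 against 1.24 for miR-10a and 1.34 against 1.0 for miR-196b.

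MiR-10b and miR-196a, which have the same seeds as miR-10a and miR-196b, were not called without the block. MiR-10b was at 5.85, 5.88 and 6.34 in MPP and at 5.44, 5.29 and 3.11 in CMP, and the low value on slide 2 set its spread. MiR-196a was at 4.77, 4.57 and 4.60 in MPP and at 5.29, 4.97 and 3.42 in CMP, so that the arrays overlapped. With the block miR-196a differed by 2.21 (adjusted p = 0.0175) and miR-10b by 0.86 (adjusted p = 0.25).

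**Figure D2:**
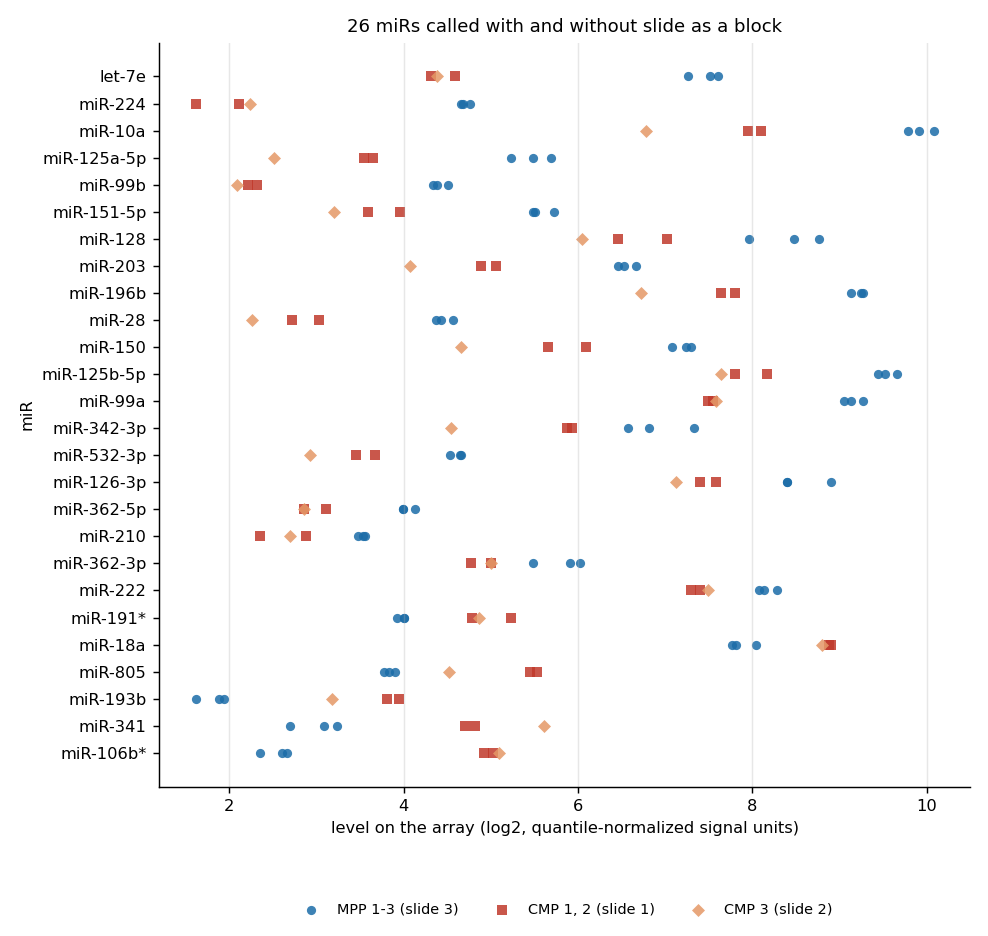
Level on each array (log2, x axis) of the 26 miRs called in the same direction with and without slide as a block (y axis), in order of the difference between MPP and CMP. Circles are MPP 1 to 3, squares CMP 1 and 2, and diamonds CMP 3. In the upper 20 rows every MPP array lies to the right of every CMP array, in the lower 6 to the left.

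Among 9 miRs linked to lymphocytes, 3 were called higher in MPP in both fits and none lower, where over all 237 miRs 41 were higher without the block (17.3%) and 20 in both fits. The median difference of the list was 0.29. MiR-150, which restrains Myb in developing lymphocytes, was at 7.24, 7.08 and 7.29 in MPP and at 6.09, 5.65 and 4.66 in CMP, a 3.33-fold difference (adjusted p = 0.00929). Its gap of 0.99 was below the CMP difference between slides of 1.22. MiR-128 was at 8.76, 8.48 and 7.97 in MPP and at 7.02, 6.46 and 6.05 in CMP, a 3.71-fold difference (adjusted p = 0.00178) with a gap of 0.94 against 0.69. For miR-128 ST-HSC were 0.90 higher on slide 3 than on slide 2, in the same direction. MiR-342-3p was at 7.34, 6.82 and 6.57 in MPP and at 5.93, 5.88 and 4.54 in CMP, again without overlap but with a gap below the CMP difference between slides, 0.64 against 1.36.

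MiR-155, miR-146a and the 4 miR-181 miRs of the list were not called. MiR-181a, known from lymphoid progenitors and thymocytes, was at 8.56, 8.28 and 8.37 in MPP and at 8.88, 8.65 and 9.37 in CMP. MiR-146a, an inhibitor of innate immune signalling, was at 5.27, 5.17 and 5.56 in MPP and 5.22, 5.08 and 4.82 in CMP. With the block miR-146a differed by 2.89 (adjusted p = 0.0015) and miR-181c by 0.91 (adjusted p = 0.0436), both being lower in ST-HSC on slide 3 than on slide 2. Summed over the list, signal was 1522 to 1922 units in MPP and 1529 to 1707 in CMP.

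MiR-126-3p, encoded in an intron of Egfl7 and known for holding back cycling of stem cells, was at 8.90, 8.40 and 8.40 in MPP and at 7.59, 7.40 and 7.12 in CMP. MPP were 2.29-fold higher (adjusted p = 0.0193). ST-HSC were lower on slide 3 than on slide 2 by 1.32, opposite to the difference between MPP and CMP, and the block gave 2.83 (SE 0.34, adjusted p = 0.000302). The other arm, miR-126-5p, was at 5.65, 5.56 and 5.75 in MPP and 5.20, 5.14 and 4.61 in CMP and was called with the block only (2.62, adjusted p = 0.00072).

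Of the miRs named for the size of their difference, miR-224 and miR-151-5p were also called in every reading. MiR-224 was at 4.68, 4.66 and 4.76 in MPP, and at 2.12, 1.62 and 2.23 in CMP, where no array detected it. It was at least 1.31-fold higher in MPP, and the fitted difference was 2.71 (SE 0.20, adjusted p = 6.66e-07) without and 2.22 with the block. Detection of miR-224 followed slide, as it was detected on every MPP and ST-HSC array of slide 3 and on no array of slides 1 and 2. Without the MPP arrays miR-224 would not have passed the detection filter, so its call is no evidence of a direction. ST-HSC were 0.38 higher on slide 3 than on slide 2. MiR-151-5p was at 5.51, 5.49 and 5.72 in MPP and at 3.96, 3.60 and 3.20 in CMP, at least 2.41-fold higher (adjusted p = 7.28e-05), with ST-HSC differing by 0.00 between slides.

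The miRs that follow were also called both ways and are named here after their values were seen. MiR-203, miR-28, miR-532-3p, miR-362-5p, miR-362-3p and miR-210 had fitted differences of 0.88 to 1.88 in favour of MPP. MiR-203 was at 6.46, 6.53 and 6.66 in MPP and at 4.89, 5.06 and 4.07 in CMP. MiR-362-3p, miR-362-5p and miR-532-3p lie in 1 cluster on the X chromosome, of which 3 of 6 tested miRs were called. Of all 237 miRs 78 were called (32.9%), 41 of them higher in MPP (17.3%). No CMP array detected miR-362-5p or miR-532-3p, so the cluster count rests in part on undetected signals. The MPP mean of miR-362-5p, 4.04, lay below the lowest well-detected signal of every CMP array, so no size can be given for it. MiR-210, known for its induction by low oxygen, was at 3.55, 3.47 and 3.54 in MPP and at 2.88, 2.35 and 2.69 in CMP, where no array detected it. It was detected on the MPP arrays alone and passed the filter only through them, so its call is no evidence of a direction. Its MPP levels also lay below the lowest well-detected signals of the CMP arrays (4.052, 4.655 and 4.205), so no size can be given. MiR-28 was detected on the MPP and ST-HSC arrays of slide 3 and on no other array. It too would not have passed the filter without the MPP arrays, so its call is no evidence of a direction.

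MiR-222 and miR-221, which share a seed and limit Kit in erythroid cells, were not equally different. MiR-222 was at 8.14, 8.08 and 8.28 in MPP and at 7.40, 7.29 and 7.5 in CMP, a 1.70-fold difference (adjusted p = 0.00548, with the block 0.042). MiR-221 was at 9.24, 9.28 and 9.37 in MPP and at 9.09, 8.95 and 8.84 in CMP, without overlap but not called (adjusted p = 0.29). Whether the 2 miRs differed from each other was not tested.

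Of the 20 miRs that were higher in MPP both ways, the GMP mean was below the CMP mean for 17 (85%) and the MEP mean for 18 (90%), against 121 (51.1%) and 154 (65%) of all 237 miRs. The descending order of CMP, GMP and MEP held for 14 of the 20, and for 38 of the other 112 miRs with a higher mean in MPP than in CMP. No CMP array detected 8 of the 20, so their order below CMP compares undetected signals. For the 10 detected on all CMP arrays the descending order held for 9, and for 27 of the 58 others so detected. GMP and MEP shared their slides with CMP, 2 arrays each on slide 1 and 1 on slide 2, so slide does not separate these 3. Of the 26 miRs called both ways, 22 were also called in the same direction when MPP were set against CMP 3 alone.

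Fewer miRs were lower in MPP in every reading. MiR-106b*, the passenger strand of a hairpin in the miR-106b-25 cluster, was at 2.35, 2.61 and 2.67 in MPP and at 4.92, 5.02 and 5.09 in CMP. It was detected on every CMP array and on no MPP array, and was at least 4.15-fold lower in MPP (fitted difference -2.47, SE 0.31, adjusted p = 0.000104). With the block the difference was -1.29 (adjusted p = 0.0211), since ST-HSC too were lower on slide 3, by 1.27. The GMP mean, 5.50, was the highest of the 6 populations.

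MiR-18a, of the miR-17-92 cluster that promotes proliferation, was at 7.76, 8.04 and 7.81 in MPP and at 8.90, 8.88 and 8.80 in CMP. The CMP difference between slides was -0.09, and MPP were 1.98-fold lower (adjusted p = 0.000776). The block gave -1.24 (adjusted p = 0.00196). MiR-191* was 1.98-fold lower in MPP, at 4.01, 3.92 and 4.0 against 4.79, 5.23 and 4.87 in CMP (adjusted p = 0.00113).

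The remaining miRs that were lower both ways were near background or uncertain. MiR-341 was at 3.08, 3.24 and 2.69 in MPP and 4.82, 4.70 and 5.62 in CMP, detected on 1 MPP and 2 CMP arrays. MiR-805, whose listed position is on the mitochondrial chromosome, was at 3.78, 3.83 and 3.91 in MPP and 5.53, 5.46 and 4.52 in CMP, and its gap of 0.61 was below the CMP difference between slides of 0.98. MiR-193b was called but detected on none of the 6 arrays, so no fold is given.

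The miRs of the miR-17-92 cluster and its paralogs, known for driving proliferation in blood progenitors, divided by member without the block. In miR-17-92, 3 of 6 members were lower in MPP (miR-17, miR-18a and miR-20a), miR-92a was higher, and miR-19a and miR-19b were not called. Of all miRs tested 15.6% were lower and 17.3% higher. With the block miR-18a was the only member called, where 5.06% of all miRs tested were lower and 15.6% higher. MiR-20a went to -0.11 (adjusted p = 0.75) and miR-92a to 0.27 (adjusted p = 0.52). MiR-17 was at 6.21, 6.66 and 6.51 in MPP and at 8.37, 8.17 and 8.04 in CMP, a 3.32-fold difference (adjusted p = 0.000175). MiR-92a, whose listed position is in the same cluster, was at 12.70 on every MPP array and at 12.24, 11.92 and 11.79 in CMP. Signals this high can be tied by quantile normalization, which gives the same value to the same rank.

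In the paralog clusters, 4 of 6 tested miRs were lower in MPP (miR-106a, miR-20b, miR-363 and miR-93), and miR-106b and miR-25 were not called. Of all miRs tested 15.6% were lower without the block and 5.06% with it. MiR-106a was at 5.86, 6.26 and 6.19 in MPP and at 8.10, 8.08 and 7.69 in CMP, a 3.62-fold difference. MiR-93 was at 8.08, 8.19 and 8.10 in MPP and at 9.97, 9.75 and 9.71 in CMP, a 3.21-fold difference. The seed AAAGUGC was carried by 6 tested miRs, of which 5 were lower in MPP without the block and 0 were called with it. For miR-17, miR-106a and miR-93 the differences with the block were -0.87, -0.69 and -0.64 (adjusted p = 0.054, 0.079 and 0.073), as ST-HSC were lower on slide 3 by 0.77, 1.07 and 1.12.

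MiRs linked to granulocytes and monocytes had 2 of 8 members lower in MPP, miR-338-3p and miR-149, and none higher, with a median of -0.42, where 15.6% of all miRs tested were lower. MiR-338-3p had the largest fall of all called miRs. It was at 2.01, 1.90 and 1.96 in MPP and at 5.07, 5.20 and 5.86 in CMP, detected on every CMP array and no MPP array, and at least 5.33-fold lower in MPP (adjusted p = 0.00172). ST-HSC were at 5.93 on slide 2 and at 2.77 and 2.68 on slide 3, and with the block the difference was -0.19 (adjusted p = 0.85). The other arm of its hairpin, miR-338-5p, was higher in MPP, at 5.34, 5.63 and 5.63 against 4.14, 4.24 and 4.51, and turned to -0.64 with the block.

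MiR-223, the most typical granulocyte miR, was high in both populations, at 11.79, 11.73 and 11.73 in MPP and 12.70, 12.88 and 12.39 in CMP. The arrays did not overlap, but the difference of -0.91 was not called (adjusted p = 0.11). MiR-21, miR-23a, miR-24, miR-27a and miR-146b were not called. Summed signal over the list was 9597 to 10740 units in MPP and 12250 to 13370 in CMP. The brightest members weigh most in this sum. These were miR-223 and miR-21, with means of 11.75 and 11.91 in MPP and of 12.66 and 11.84 in CMP. Neither was called, so the sum does not speak for the list as a whole.

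None of the 3 erythroid miRs was called, where 32.9% of all miRs tested were. MiR-451 was at 7.27, 5.12 and 6.74 in MPP and at 7.83, 6.26 and 6.63 in CMP, with overlap. MiR-144 was at the floor on all 3 MPP arrays and on CMP 2, and was detected on none of the 6, while miR-486 was detected on 1 CMP array. The summed signal of the 3 was 41.7 to 165 units in MPP and 88.1 to 258 in CMP.

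Of 15 miRs of muscle, liver, brain, epithelium and stroma, all on the array, 14 did not pass the detection filter. MiR-200b, of epithelial cells, passed and was called higher in MPP, at 3.47, 3.34 and 3.18 against 2.23, 1.67 and 1.64 in CMP, where no array detected it. With the block miR-200b was not called (0.93, adjusted p = 0.11). It was detected on the MPP arrays alone and passed the filter only through them, so its call without the block is no evidence of a direction. Its MPP levels also lay below the lowest well-detected signals of the CMP arrays (4.052, 4.655 and 4.205). The share of cells of another type in either sort was not tested.

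**Figure D3:**
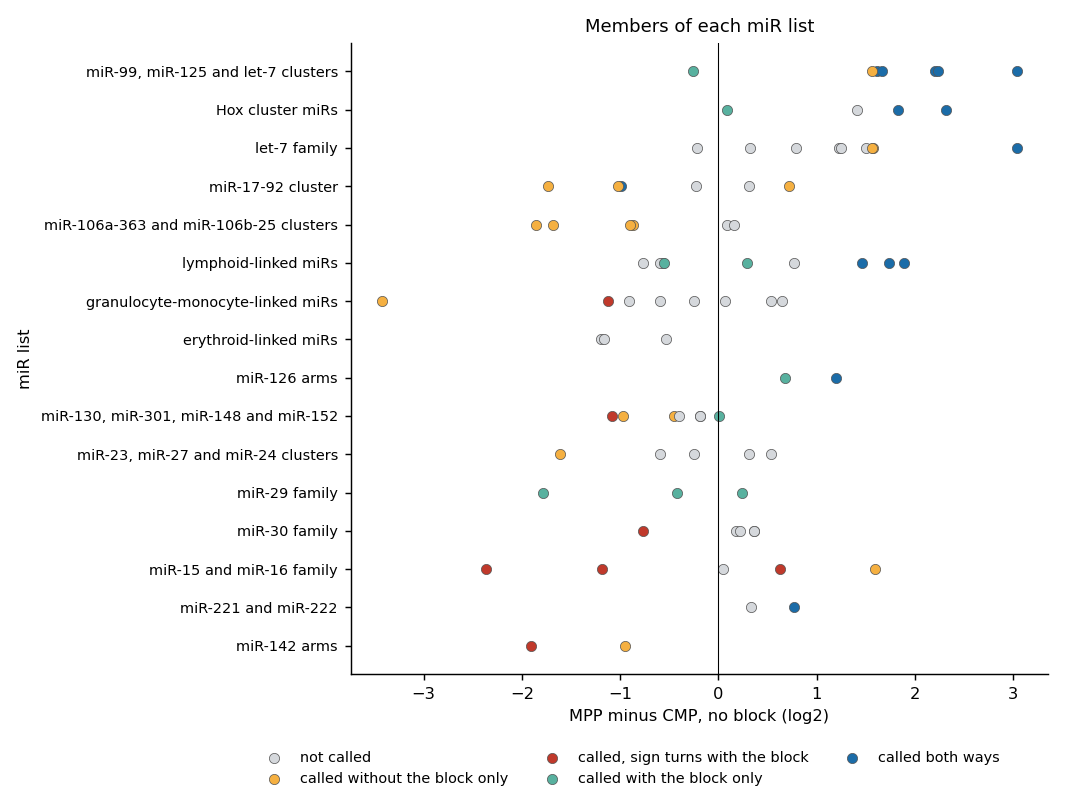
Difference between MPP and CMP (log2, no block, x axis) of each tested member of the miR lists (y axis), each point 1 miR coloured by how it was called without and with slide as a block. Members called both ways are found mainly among the miR-99, miR-125 and let-7 clusters, the Hox loci and the lymphoid-linked miRs.

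Of the called miRs 20 changed sign with slide as a block, 9 that had been higher in MPP and 11 that had been lower. For 16 of them the gap between MPP and CMP exceeded the CMP difference between slides, so that measure alone did not set them apart. For all 20 the ST-HSC arrays of slide 3 differed from that of slide 2 in the direction in which MPP differed from CMP, and for 13 by at least as much. The median size of the ST-HSC difference was 1.82 for these 20 miRs and 0.34 for the 26 called both ways, where the median size of the difference between MPP and CMP was 1.61 and 1.76. This follows in part from how the block is built, as it subtracts that ST-HSC difference. Slide and replicate cannot be told apart within ST-HSC.

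MiR-16, a repressor of cell cycle genes, was at 9.0, 8.80 and 8.84 in MPP and at 11.49, 11.21 and 11.03 in CMP, a 5.14-fold difference without overlap. ST-HSC were at 11.21 on slide 2 and at 8.95 and 9.06 on slide 3, and the block gave 0.11. MiR-15a, from the same hairpin cluster on chromosome 14, was lower in MPP by 1.18 and turned to 0.26. MiR-195 was higher in MPP, at 7.37, 7.65 and 7.75 against 5.89, 6.13 and 5.95, and miR-15b too, so the 5 tested miRs of the seed AGCAGCA had 2 called in each direction. None of the 5 was called with the block. For miR-195 and miR-15b ST-HSC were higher on slide 3 than on slide 2, by 1.43 and 0.55.

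MiR-142-3p, which is found throughout blood cells, was at 11.15, 11.40 and 11.49 in MPP and at 12.88, 13.44 and 13.44 in CMP. It turned from -1.91 to 0.11, and ST-HSC differed by -2.12 between slides. MiR-142-5p from the same hairpin was lower by 0.95, with a gap of 0.34 below the CMP difference between slides, and was -0.22 with the block. Of 5 tested miRs of the miR-30 family miR-30e alone was called, lower by 0.77, and turned to 0.26. MiR-30a, miR-30b, miR-30c and miR-30d were between 0.18 and 0.36 and were not called. Over all miRs tested 15.6% were lower.

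Others that turned were miR-202-3p, miR-697, miR-487b, miR-770-3p, miR-330*, miR-678 and miR-760, which had been higher in MPP, and miR-32, miR-324-5p, miR-186, miR-652, miR-130a, miR-140 and miR-149, which had been lower. Of these, miR-330* was detected on the MPP and ST-HSC arrays of slide 3 alone and passed the filter only with the MPP arrays. MiR-202-3p was at 9.06, 9.16 and 9.20 in MPP and at 7.05, 6.96 and 6.19 in CMP, while ST-HSC were at 5.89 on slide 2 and at 9.44 and 9.28 on slide 3. MiR-770-3p was the miR called in opposite directions, 2.28 without the block and -1.60 with it (adjusted p = 0.0321 and 0.00892). MiR-130a was at 7.95, 7.81 and 7.88 in MPP, at 8.80, 8.80 and 9.28 in CMP and at 10.45 in ST-HSC on slide 2. In its list of 7 miRs with miR-130b, miR-301 and miR-148 relatives, 3 were lower in MPP (miR-130a, miR-130b and miR-301b) and none with the block, where miR-152 was called higher. Over all miRs tested 15.6% were lower without the block and 5.06% with it.

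**Figure D4:**
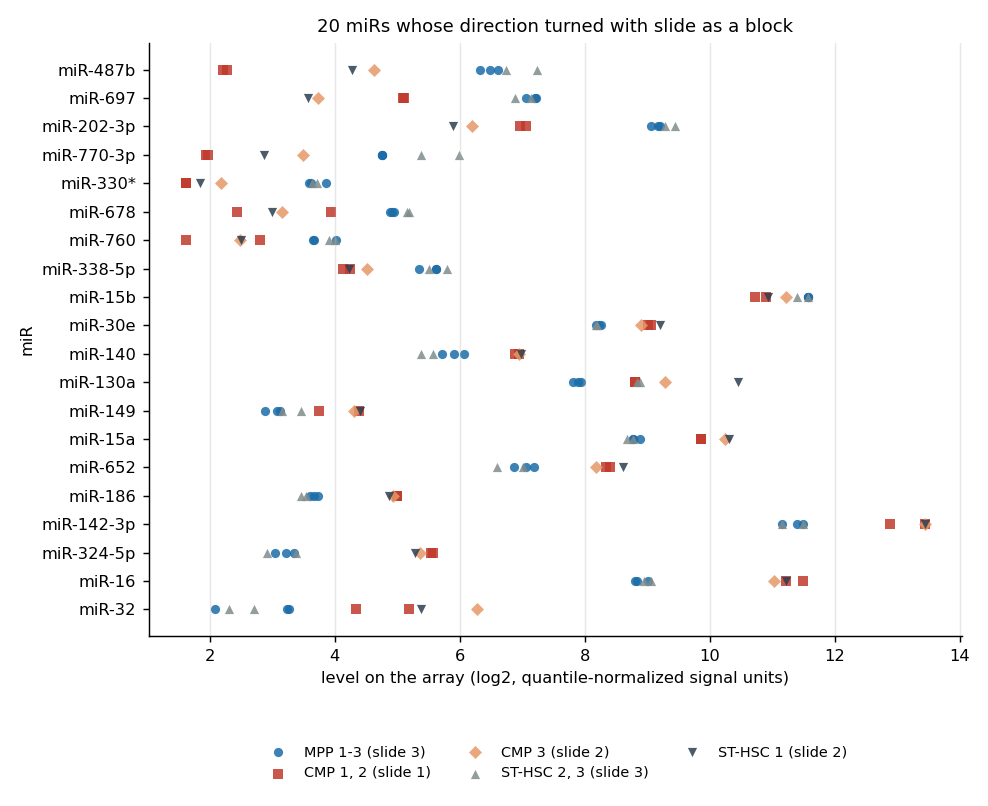
Level on each array (log2, x axis) of the 20 called miRs whose direction turned with slide as a block (y axis). Circles are MPP, squares and the diamond CMP, upright triangles ST-HSC on slide 3 and the inverted triangle ST-HSC on slide 2. For most miRs the ST-HSC arrays of slide 3 lie near the MPP arrays, and that of slide 2 near CMP.

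Without a change of sign, 12 miRs that were higher and 20 that were lower in MPP were called without the block only. Among them were miR-878-3p (2.38 without and 0.04 with the block), miR-689 (2.50 and 0.15), miR-872* (2.16 and 0.44) and miR-685 (2.36 and 0.14) on the higher side. For these, in that order, ST-HSC were higher on slide 3 than on slide 2 by 2.28, 1.32, 1.74 and 1.26. MiR-872* was detected on the MPP and ST-HSC arrays of slide 3 alone. Without the MPP arrays it would not have passed the filter, so its call is no evidence of a direction. On the lower side were miR-7a (-2.01 and -0.36) and miR-27b (-1.61 and -0.67), the member of the miR-23, miR-27 and miR-24 clusters that was called, of 5. Called without overlap, but with a gap within the CMP difference between slides, were miR-685, miR-487b, miR-770-3p, miR-150 and let-7a on the higher side and miR-32, miR-135a*, miR-805, miR-301b and miR-142-5p on the lower. For miR-487b, at 6.62, 6.32 and 6.49 in MPP and 2.28, 2.21 and 4.63 in CMP, the gap was 1.69 against 2.38. MiR-135a* was the called miR for which a second probe pointed the other way, of 66 called miRs with several probes.

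The reverse case, a call with the block only, held for 22 miRs, 17 higher in MPP and 5 lower. All 3 members of the miR-29 family, which represses collagens and DNA methyltransferases, were among the higher ones. Over all miRs tested 15.6% were called higher with the block. MiR-29b was at 8.48, 8.37 and 8.43 in MPP and at 9.88, 9.97 and 10.77 in CMP, a difference of -1.78 (adjusted p = 0.0535). ST-HSC were at 11.31 on slide 2 and at 7.88 and 7.97 on slide 3, and the block gave 1.44 (adjusted p = 0.0145). MiR-29a went from 0.24 to 1.42 and miR-29c from -0.42 to 2.11 (adjusted p = 0.000138). On the arrays themselves, MPP were above the ST-HSC arrays of slide 3 and CMP below the ST-HSC array of slide 2 for all 3.

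**Figure D5:**
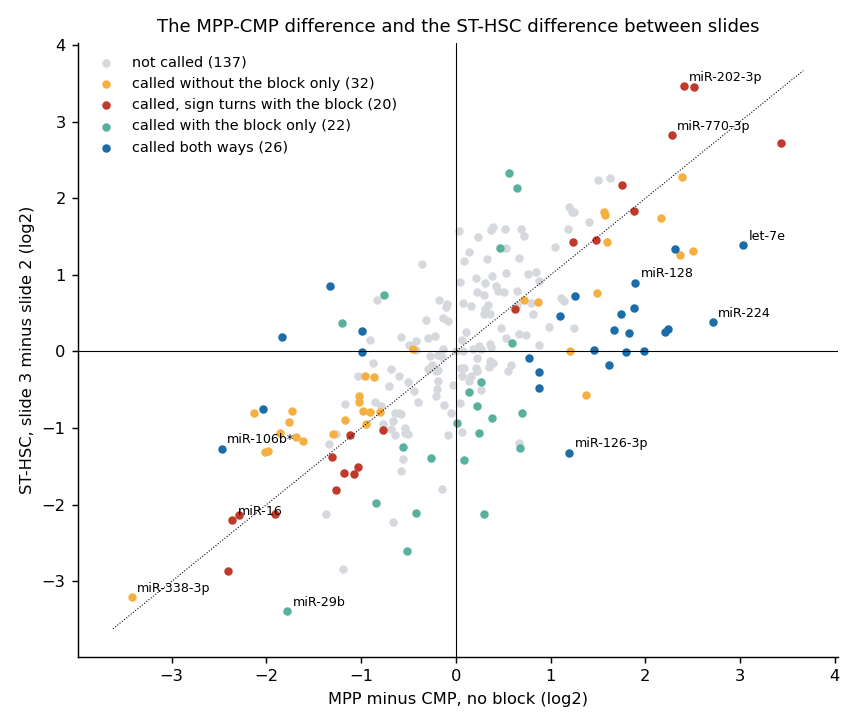
Difference between MPP and CMP (log2, no block, x axis) and between the ST-HSC arrays of slide 3 and slide 2 (log2, y axis) for the 237 miRs, coloured by how each was called. On the dotted line both differences are equal. MiRs whose sign turned lie near that line, while the miRs called both ways lie mostly near the horizontal axis.

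Lists that the study drew from these same arrays are no independent evidence of direction. Of its 12 GMP miRs 5 were lower in MPP than in CMP and none higher, with 1 (miR-106b*) called with the block too. Of its 14 general myeloid miRs 7 were tested and 4 were lower (miR-17, miR-93, miR-106a and miR-191*), 1 of them with the block. Of its 36 MEP miRs 35 were tested, 8 were lower and none higher, against 15.6% lower over all miRs tested. With the block 7 of the 35 were lower, miR-18a, miR-341 and miR-805, which were called both ways, and miR-681, miR-712, miR-712* and miR-714. Over all miRs tested 5.06% were lower with the block. The medians of the 3 lists were -0.65, -1.26 and -0.27.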

How the data were processed

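RNA from sorted bone marrow populations was hybridised at a service facility to 1-colour Agilent arrays, and scanned (probe positions in mm9). The authors deposited the spot intensities as background-subtracted by Feature Extraction, not normalized between arrays (version 9.5.3.1 on slide 1 and 10.2.1.3 on slides 2 and 3, per the file headers), and these were used. The authors also deposited log2 values (quantile method of limma, version not given in the sources used here). On every array these ranked as the median foreground (Spearman rho 1), without a background subtraction, and they served as an alternative. Column medians of these were 5.41 to 5.44.

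Control spots and spots marked as outliers were left out, and the others averaged per probe. Means were quantile-normalized over the 16 arrays, raised to a floor of 3.07 units, and log2 was taken. Probes had to be well above background (a share of 0.5 of their spots) on 3 arrays, and the brightest such probe stood for its miR. The fit used lmFit and eBayes of limma 3.58.1 (R 4.3.3) with a mean for each of 6 populations, two-sided tests and Benjamini-Hochberg adjustment over 237 miRs. It was tested on simulated data. Every adjusted p is from this fit or, where stated, from the same fit with slide as a fixed block. Where no array of one side was well above background, a bound is given, the bright side's mean against the higher of the dim side's own signal and its lowest well-detected signal. The number of arrays limits the precision. The p-values of the plain fit measure the spread between arrays of separately pooled samples within a population, taken over all 6 populations. All 3 MPP arrays shared slide 3, so on the MPP side no spread between slides enters. With slide as a random block the correlation between arrays of 1 slide was 0.791, whereas the plain fit treats arrays as independent. Raw signal intensities carry no counts, and no spot was saturated.

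The miRs and lists were chosen with earlier results of these data known. Named were, for each direction, up to 12 called miRs of largest difference without overlap, with every array of the higher side well above background and a gap over the CMP slide difference. Up to 5 more lacked only that gap. Members of each list and miRs that turned with the block were named too. Alternatives covered normalization, background, floor, filter, probe choice, trend, blocks and left-out arrays. Arms were matched to RefSeq by name, by the order of both arms or by position.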

Additional observations from a re-analysis of the deposited data

Results flagged for a closer look

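The arrays carry probes for 10 miRs of a mouse herpesvirus, of which 2 passed the detection filter, were among the 237 miRs tested and were not called. The miR mghv-miR-M1-2 was detected on 4 of the 6 arrays, all 3 MPP arrays and CMP 3, and mghv-miR-M1-7-5p on 2 MPP arrays and on no CMP array. The levels of mghv-miR-M1-2 were 3.84, 3.74 and 3.76 in MPP and 4.21, 4.16 and 4.88 in CMP (log2).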

How the results depend on the processing

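The 78 calls became 49 with slide as a fixed block (12 lower in MPP, 23 beyond the CMP slide difference) and 47 with slide as a random block (12 lower, 27 beyond). The cause was not tested. Called miRs whose sign turned with the fixed block were miR-697 (-0.57), miR-202-3p (-0.93), miR-487b (-0.47), miR-770-3p (-1.60), miR-330* (-0.43), miR-338-5p (-0.64), miR-678 (-0.58), miR-760 (-0.34), miR-15b (-0.033), miR-16 (0.11), miR-324-5p (0.062), miR-142-3p (0.11), miR-186 (0.21), miR-652 (0.69), miR-32 (0.21), miR-130a (0.55), miR-140 (0.50), miR-149 (0.22), miR-15a (0.26), and miR-30e (0.26). The sign also differed for 77 of the 159 miRs not called without it, of which 9 were called with it, miR-100 (1.60), miR-181c (0.91), miR-29b (1.44), miR-29c (2.11), miR-22 (1.51), miR-29a* (1.89), miR-671-5p (-1.84), miR-681 (-1.30) and miR-712 (-2.69). With the random block miR-202-3p (-0.17), miR-770-3p (-0.73), miR-338-5p (-0.21), miR-678 (-0.06), miR-652 (0.24), miR-130a (0.18), miR-140 (0.15), miR-30e (0.027) and miR-29c (1.54) turned. Without normalization between arrays 20 miRs were called (12 higher, 8 lower, 11 beyond the CMP slide difference). With detection required on all 6 arrays, which left 135 miRs, 53 were called, 22 of them higher, and 37 lay beyond the CMP slide difference. Against the largest slide difference of CMP, GMP, MEP and ST-HSC, 27 exceeded it. Leaving out each array in turn gave 59 to 66 calls (31 to 35 higher, 28 to 32 lower, 48 to 55 beyond the CMP slide difference). Without CMP replicate 3, or against it alone, that difference cannot be formed. The other alternatives gave 63 to 107 calls, none of them opposite in direction. Replicate numbers did not pair the arrays (correlations of deviations 0.145, -0.0553 and -0.0338), and number as a replicate block gave 82 calls, 71 of them the same miRs. The number of detected miRs differed by 52.3 to 64.3 on leaving out an array.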
